A study of Mus musculus with 56 samples.

Results

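Whole spinal cord of mice expressing human TDP-43 with the A315T substitution was compared with whole cord of age-matched Chat bacTRAP mice at 9 weeks. The comparison holds 11 of the 56 libraries in the series, 5 A315T and 6 Chat bacTRAP, taken by their titles. A315T mice carried 2 transgenes. Human TDP-43 A315T (line 95Balo/J) was driven by the prion promoter, and Chat bacTRAP (line DW167Htz/J) put a tagged ribosomal protein under the regulatory sequence of Chat, the acetylcholine-synthesizing enzyme of motor neurons. Chat bacTRAP mice carried the second transgene alone, so the bacTRAP allele was common to both groups. The study describes the animals as females on a C57BL/6J background that were still without motor signs at the younger age, whereas the labels name every A315T library diseased. Each whole-cord library is poly(A) RNA from lysate set aside before the motor neuron ribosomes were purified. Whole cord of hTDP-43 WT mice (line 3cPtrc/J, which also carries Chat bacTRAP) was available at 9 weeks (6 libraries), as was cord of A315T (4 libraries) and Chat bacTRAP (5 libraries) at 14 weeks. With 5 hTDP-43 WT cord libraries of 14 weeks, all 31 cord libraries were fitted together to estimate the spread. A315T and hTDP-43 WT are each represented by 1 transgenic line, and the labels do not say which libraries come from separate animals, so p-values measure the spread between these libraries.

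TDP-43 is a nuclear RNA-binding protein that forms cytoplasmic aggregates in most patients with amyotrophic lateral sclerosis, and substitutions in its gene cause familial disease. In cord with injured neurons, microglia, the resident phagocytes, can leave their surveillance state. They then express a known disease-associated program of lysosomal, lipid-handling and adhesion genes, partly under control of the receptor Trem2. Astrocytes react to the same setting with intermediate filaments and secreted protease inhibitors.

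The A315T libraries held 30.5M to 53.2M gene counts (M, mega) and the Chat bacTRAP libraries 17.5M to 34.5M. Mean depth was 41.4M ± 9.48M (SD, n = 5) against 27.1M ± 7.50M (SD, n = 6; exact permutation test, two-sided, p = 0.0303, adjusted over 2 measures p = 0.0606). Mitochondrially encoded genes took 0.965% to 1.42% of counts in A315T and 0.980% to 5.41% in Chat bacTRAP (exact permutation test, two-sided, p = 0.0628 over 462 splits). Chat bacTRAP replicates 1 and 2 lay near 1%, and replicates 3 to 6 at 2.61% or more. The same 4 libraries held more endothelial and pericyte RNA, with a summed normalized count over 18 genes of 7577 to 10390 against 4313 to 5435 in replicates 1 and 2 and 4227 to 5059 in A315T. Genes of the meninges, nerve root Schwann cells and skeletal muscle ranged widely among the controls, sensory ganglion genes stood high in Chat bacTRAP replicate 2 (583.8 against 68.1 to 117 in the others), and haemoglobin and other blood genes stood high in A315T replicates 1 and 2 (41750 and 53270 against at most 17420 in the other 9). Oligodendrocyte, astrocyte, neuron and microglia markers were present in every library. The labels name cervical cord, yet 5 Hox genes of lumbar and sacral segments (Hoxa10, Hoxc10, Hoxc11, Hoxd10 and Hoxd11) were counted in each of the 11 libraries, from 26.9 for Hoxd11 to 1610 for Hoxc10, beside the more rostrally expressed Hoxc4 at 718.5 to 1103. In bulk cord, more cells of a type and more RNA per cell cannot be told apart.

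**Figure D1:**
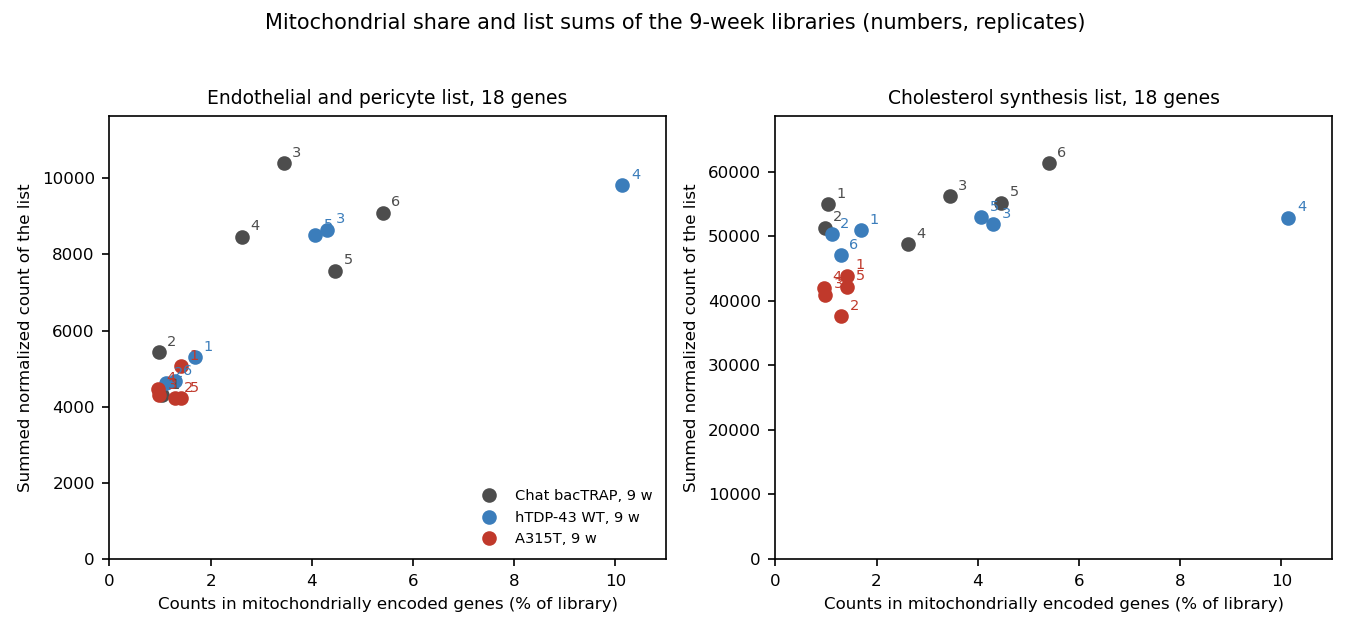
Each point is 1 whole-cord library of 9 weeks, with its replicate number. The x axis is the percent of counts in mitochondrially encoded genes and the y axis the summed normalized count of 18 endothelial and pericyte genes (left) or 18 cholesterol synthesis genes (right). The 5 A315T libraries lie at the left among low-mitochondria controls for the endothelial sum (4227 to 5059), and below all controls for the cholesterol sum (37610 to 43890 against 47020 to 61250).

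Of 18178 genes tested, 79 (0.435%) differed between A315T and Chat bacTRAP cord at an adjusted p below 0.05 (edgeR quasi-likelihood test with Benjamini-Hochberg adjustment), 57 higher (0.314%) and 22 lower (0.121%). A change of at least 2-fold was reached by 32 of the rises (0.176%) and 4 of the falls (0.022%). The median log2 change of all genes was -0.01. Groups did not overlap for 51 of the 57 rises and 20 of the 22 falls, against 1.03% of all genes in the upward and 0.985% in the downward direction. The same libraries chose these genes, so their separation largely follows from the choice and adds no support. Of the 57 rises, 50 had their highest value of the 5 A315T libraries in replicate 2. Counts past the test fell from 79 to 40 without that library, to 52 without A315T replicate 4 and to 50 without Chat bacTRAP replicate 5, and rose to 137 without Chat bacTRAP replicate 2. With Chat bacTRAP replicates 1 and 2 as the only controls 15 genes passed, 13 of them among the 79, and all 79 kept their direction. These 13 were Gm13886, Lamr1-ps1, Cst7, Itgax, Lgals3, Ccl3, Ccl4, Arl11, Serpina3n, C4b, D2hgdh, Upp2 and Clns1a. For the 51 rises and 20 falls without overlap, a subset of the same controls could hardly reverse the direction. The kept direction of the 79 therefore adds no support.

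Marks of the transgene were compared with the labels. Mouse Tardbp, whose counts cannot be split into the endogenous and any cross-mapped human message, measured 2916, 3508, 3396, 3768 and 3421 normalized counts in A315T replicates 1 to 5. Chat bacTRAP libraries ranged from 2746 to 4027 with a median of 3593. The groups overlapped, and the log2 change was 0.01 ± 0.12 (SE), adjusted p = 0.987. A clear mark of the A315T line was instead Lamr1-ps1 (chr2:131904086-131904959, GRCm38), a processed pseudogene of the laminin receptor that ends 4969 bases before the start of the prion protein gene Prnp, on the same strand. It measured 32.8, 25.3, 36.8, 37.5 and 36.8 in the 5 A315T libraries and 0 in all 6 Chat bacTRAP libraries. It had 39 to 82 counts per A315T library (adjusted p = 4.12e-08 in edgeR). Pooled over the 5 libraries and scaled to depth, it was at least 74.2-fold higher than a floor of 3 counts over the whole control group. That bound covers counting error only. Each of the 5 labels thus goes with a signal that no control library showed. The mark was chosen with earlier results of these data known, so it is no independent check of the labels.

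Gm13886 (chr2:104820179-104821361), a second processed pseudogene, was also on the list of transgene marks. It measured 293, 347, 418, 482 and 423 in A315T. In Chat bacTRAP it ranged from 0.746 to 7.41 with a median of 3.61, a log2 change of 6.66 ± 0.39 (SE), adjusted p = 1.02e-12. It was intermediate in hTDP-43 WT cord, at 27.8 to 109.6, and was the one gene of 18178 (0.0055%) past the test between hTDP-43 WT and Chat bacTRAP at 9 weeks (log2 change 3.99 ± 0.39 SE, adjusted p = 5.28e-07). At an unadjusted p below 0.05 that comparison held 264 genes (1.45%). Lamr1-ps1 stood at 0 to 1.1 in hTDP-43 WT. Prnp itself, whose promoter drives both human transgenes, had a log2 change of 0.31 ± 0.10 (SE), adjusted p = 0.214, with A315T at 20188 to 24202 and Chat bacTRAP at 14824 to 21116. Reads of pseudogenes can be shared with their parent genes, so both levels are uncertain. Whether reads of the human transgenes were counted at Gm13886 was not tested.

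Disease-associated microglial genes held several of the largest rises. Of 20 listed and tested, 6 passed the test, all upward, beside 0.314% of all genes, and the median log2 change of the list was 0.23 against -0.01 over all genes. Cst7, cystatin F, an inhibitor of lysosomal cysteine proteases, measured 52.1, 275, 47.7, 105 and 106 normalized counts in A315T replicates 1 to 5. In Chat bacTRAP it ranged from 1.43 to 12.6 with a median of 4.83. Every A315T library lay above every control, with replicate 2 highest and replicates 1 and 3 lowest of the 5, and the log2 change was 4.31 ± 0.42 (SE), adjusted p = 1.38e-07.

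Itgax, the integrin subunit CD11c, measured 27.8, 110.4, 22, 54.8 and 45.1 in A315T. Its control range ran from 1.43 to 5.69 with a median of 4.46. As for Cst7, replicate 2 was highest and replicate 3 lowest of the A315T libraries, the groups stood apart, and the log2 change was 3.66 ± 0.40 (SE), adjusted p = 1.52e-06. Clec7a, the beta-glucan receptor dectin-1, measured 125, 504, 100.4, 221 and 168 against control values from 26.9 to 80.7 with a median of 39. Groups again did not overlap, although Chat bacTRAP replicates 3 and 6 came near the lowest A315T library (log2 change 2.27 ± 0.39 (SE), adjusted p = 0.00187).

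Lgals3, the secreted lectin galectin-3, was the most abundant of the 6. It measured 746, 1369, 766, 882 and 769.7 in A315T, and controls ranged from 143 to 257 with a median of 201. The lowest A315T library was far above the highest control, and 4 of the 5 A315T libraries lay close together (log2 change 2.18 ± 0.25 (SE), adjusted p = 4.57e-06). Gpnmb, a membrane glycoprotein of phagocyte lysosomes, measured 135, 371, 99.3, 170.4 and 142 against controls from 32.5 to 52.2 with a median of 41.2 (log2 change 2.15 ± 0.29 (SE), adjusted p = 4.84e-05). Cd68, a lysosomal membrane protein of macrophages, reached 185 to 423 in A315T and 71.6 to 200 in Chat bacTRAP. The Cd68 groups overlapped through Chat bacTRAP replicate 3, and its log2 change of 1.22 ± 0.26 (SE), adjusted p = 0.0177 became 1.00 (adjusted p = 0.156) without A315T replicate 2.

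The other 14 members did not pass in edgeR. DESeq2 called 8 members of the list, including Lyz2 and Tyrobp, and limma-voom called 9. Lyz2, lysozyme (log2 change 1.09 ± 0.28 SE, adjusted p = 0.09), Tyrobp, the signalling adaptor of Trem2 (0.91 ± 0.23 SE, adjusted p = 0.071), and Trem2 itself (0.76 ± 0.25 SE, adjusted p = 0.21) came next in order. Apoe, the lipid carrier, ranged from 18100 to 36700 in A315T and from 13600 to 41900 in controls, a log2 change of 0.02 ± 0.28 (SE). Lipoprotein lipase Lpl (0.11 ± 0.42 SE) and the secreted matrix protein Spp1 (-0.19 ± 0.12 SE) likewise overlapped. Expression of Apoe, Spp1 and Lpl in other cord cells than microglia is known, and it was not separated here.

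Genes of surveillant microglia showed no member past the test among 14 in edgeR or DESeq2 (1 in limma-voom, and 2 at an unadjusted p below 0.05), with 6 log2 changes above 0 and 8 below and a median of -0.02. The list sum ranged from 5566 to 8379 in A315T and from 4781 to 8415 in Chat bacTRAP. P2ry12, the ADP receptor of ramified microglia, measured 346, 398, 252, 295 and 291 in A315T and ranged from 277 to 679 with a median of 506 in controls. Chat bacTRAP spread more widely than A315T, the groups overlapped, and the log2 change was -0.59 ± 0.28 (SE), adjusted p = 0.428. Tmem119 (-0.31 ± 0.20 SE), Cx3cr1 (-0.01 ± 0.21 SE) and Csf1r (0.15 ± 0.22 SE) overlapped as well.

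**Figure D2:**
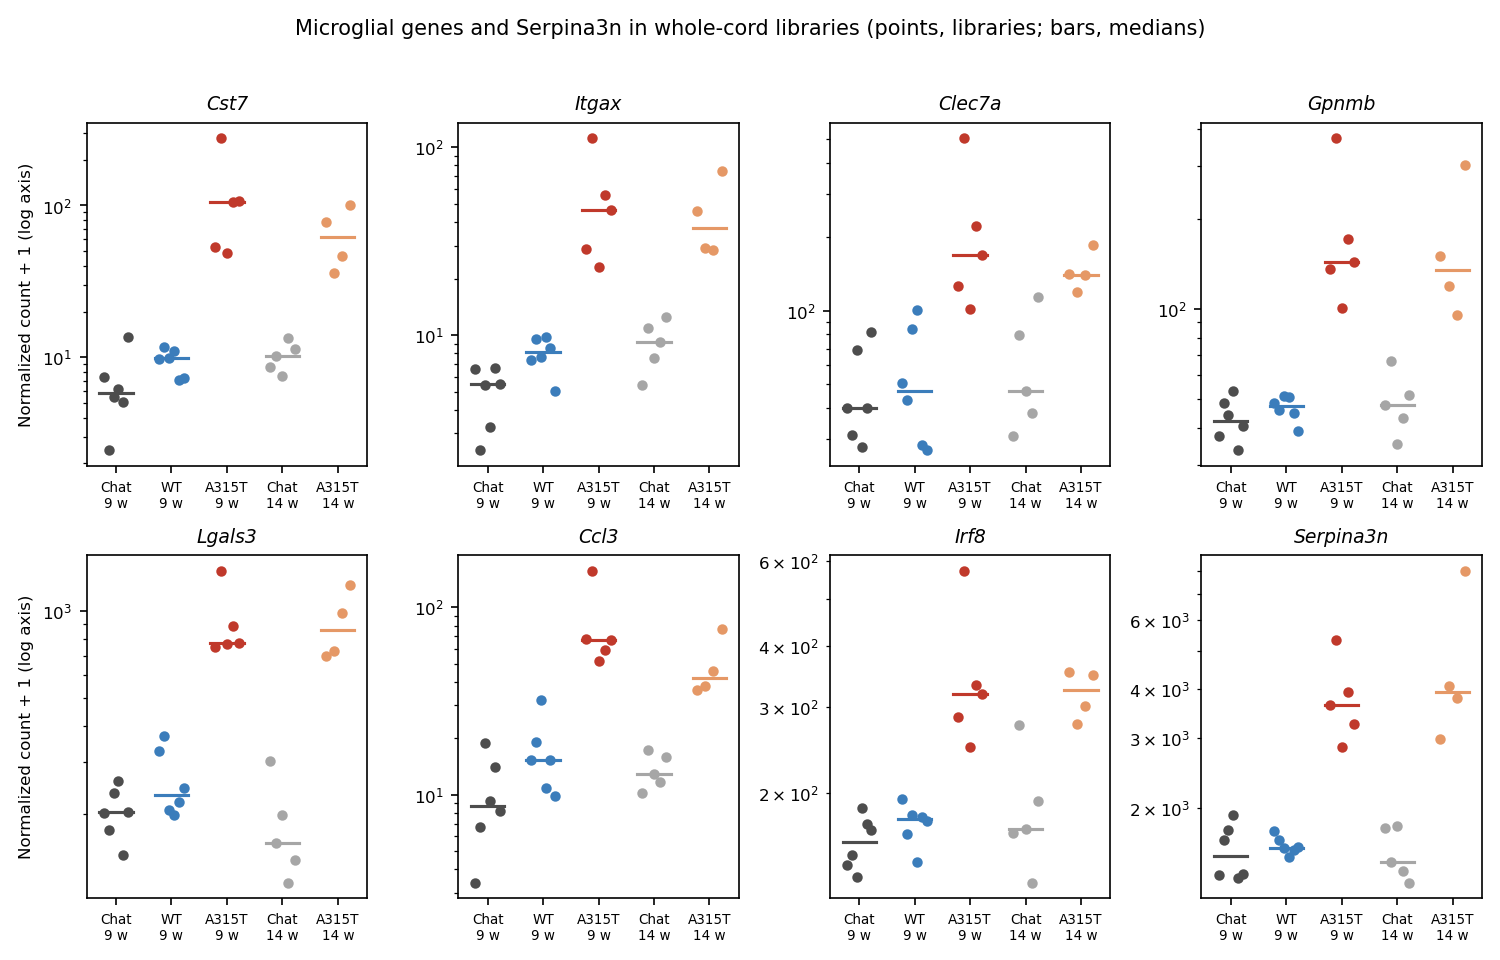
Normalized count plus 1, on a log axis, of 7 microglial genes and Serpina3n in each whole-cord library of Chat bacTRAP, hTDP-43 WT and A315T at 9 weeks and of Chat bacTRAP and A315T at 14 weeks, with the median of each group as a bar. All 5 A315T libraries at 9 weeks lie above all 6 Chat bacTRAP libraries in each panel, for example 47.7 to 275 against 1.43 to 12.6 for Cst7 before 1 was added.

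Ccl3, Ccl4, Mmp12, Hcar2, Pdcd1 and Irf8 belong to none of the lists and also rose. Ccl3, a chemokine that attracts monocytes, measured 66.4, 156, 50.5, 58 and 66.1 in A315T and ranged from 2.39 to 17.8 with a median of 7.69 in Chat bacTRAP. Its 5 A315T values stood apart from the controls, with replicate 2 high and the other 4 close together (log2 change 3.18 ± 0.38 (SE), adjusted p = 7.10e-06). Ccl4, the neighbouring chemokine of the same receptor, changed by 2.83 ± 0.41 (SE), adjusted p = 1.54e-04. Mmp12, macrophage elastase, was nearly absent from controls, with 0 to 1 count per library and 4 counts in all, and reached 11 to 127 counts per library in A315T (normalized 16, 69.7, 6.04, 34.7 and 21). That difference had the largest fitted size after the pseudogenes, a log2 change of 5.40 ± 0.72 (SE), adjusted p = 4.15e-05.

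Low counts also lay behind Hcar2, the receptor for niacin and hydroxybutyrate, with 13 to 62 counts per A315T library and 0 to 6 per control (log2 change 3.26 ± 0.56 (SE), adjusted p = 0.00187), and Pdcd1, the inhibitory receptor PD-1, with 10 to 53 against 2 to 7 (2.11 ± 0.44 (SE), adjusted p = 0.0154, or 1.76 (adjusted p = 0.128) without A315T replicate 2). Irf8, a transcription factor of the myeloid lineage, was far better counted. It measured 285, 571, 247, 332 and 318 against controls from 133 to 185 with a median of 157. The lowest A315T library exceeded the highest control, and the log2 change was 1.16 ± 0.17 (SE), adjusted p = 1.47e-04.

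Intracellular signalling genes of haematopoietic cells formed a further group, named here after their values were seen. Dock2, an exchange factor for Rac, measured 157, 273, 124, 176 and 162 and ranged from 80 to 93.2 with a median of 87.4 in Chat bacTRAP, whose 6 libraries lay closer together than the A315T libraries (log2 change 1.05 ± 0.16 (SE), adjusted p = 2.30e-04). Rises were also found for the exchange factor Vav1 (0.98), the lipid phosphatase SHIP1 gene Inpp5d (0.81), the tyrosine phosphatase SHP-1 gene Ptpn6 (0.82), the actin regulator Nckap1l (0.80), the adaptors Blnk (0.86) and Fyb (1.24), the myosin Myo1f (1.24) and the G-CSF receptor Csf3r (1.00), all as log2 changes with adjusted p from 0.0015 to 0.0489. Without A315T replicate 2, Vav1 (adjusted p = 0.0811), Fyb (0.245), Csf3r (0.258), Ptpn6 (0.279) and Blnk (0.279) did not pass. The inflammasome components Naip2 (1.06) and Pycard (0.91) rose too (adjusted p = 0.0213 for each), the latter with overlapping groups, and without A315T replicate 2 their changes were 0.73 (adjusted p = 0.217) and 0.64 (adjusted p = 0.217). In these 11 genes A315T replicate 2 held the highest of the 5 values each time.

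Reactive astrocyte genes moved in part. Of 28 tested, 3 passed, all upward (0.314% of all genes were called upward), and the list median was 0.18. The log2 changes lay above 0 for 18 members and below for 10, down to -1.02 for B3gnt5. For 6 members every A315T library was above every control (1.03% of all genes). For Fbln5 (-0.44 ± 0.16 SE) every one was below (0.985%). Lcn2 (0.25 ± 0.47 SE) and Gbp2 (0.04 ± 0.32 SE) overlapped. DESeq2 called 5 members and limma-voom 12. Serpina3n, a secreted serine protease inhibitor, measured 3639, 5340.5, 2856, 3934 and 3270.4 normalized counts in A315T and ranged from 1325 to 1912 with a median of 1506 in Chat bacTRAP. No A315T library reached down to the control range, and the log2 change was 1.30 ± 0.18 (SE), adjusted p = 4.84e-05. Vim, the intermediate filament vimentin, measured 2877, 4812, 2902, 3546 and 3100.5 against controls from 1359 to 2753 with a median of 1919. Its groups stood apart by a narrow margin (log2 change 0.80 ± 0.15 (SE), adjusted p = 0.00484), and the change was 0.65 (adjusted p = 0.0606) without A315T replicate 2.

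Tgm1, a transglutaminase, was counted 13 to 66 times per A315T library and 0 to 4 times per control (log2 change 2.82 ± 0.57 (SE), adjusted p = 0.0125, or 2.33 (adjusted p = 0.113) without A315T replicate 2). Gfap, the principal filament of reactive astrocytes, measured 49045, 53947, 40819, 46931 and 44269 in A315T. Controls ranged from 25260 to 39780 with a median of 35137. All 5 A315T values were above all controls, yet the log2 change of 0.49 ± 0.13 (SE), adjusted p = 0.0968 did not pass over 18178 genes in edgeR. It passed in DESeq2 (adjusted p = 0.0286). None of 18 astrocyte identity genes passed in edgeR or DESeq2 (2 in limma-voom, and 2 at an unadjusted p below 0.05), and their median log2 change was -0.21.

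Complement had 1 of 12 tested members past the test, upward (0.314% of all genes). C4b, which encodes the fourth component of the classical cascade, measured 1690.4, 2364, 1173, 1642 and 1416 in A315T and ranged from 447 to 991 with a median of 673 in Chat bacTRAP. The groups were separate, with control replicates 3 and 4 nearest to A315T (log2 change 1.27 ± 0.20 (SE), adjusted p = 6.17e-04). The C1q subunits of the initiating complex had log2 changes of 0.65 ± 0.28 (C1qa), 0.53 ± 0.24 (C1qb) and 0.73 ± 0.25 (C1qc), each ± SE and each with overlapping groups and an adjusted p of 0.23 or more. The receptor C3ar1 stood at 1.04 ± 0.28 (SE), adjusted p = 0.108 in edgeR, and passed in DESeq2 (adjusted p = 0.0274). DESeq2 called 2 complement genes and limma-voom 4. None of 15 interferon response genes passed in edgeR or DESeq2 (1 in limma-voom, and 1 at an unadjusted p below 0.05), although 14 had a log2 change above 0 against 48% of all genes (median 0.14, with Oas1a highest at 1.23 ± 0.40 (SE), adjusted p = 0.213). At 14 weeks the median of this list was -0.16, on the other side of 0.

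Of 12 axon injury genes 1 passed, upward (0.314% of all genes). The list had 4 log2 changes above 0 and 8 below, with a median of -0.098. DESeq2 called 1 member and limma-voom 3. Atf3, a transcription factor induced in axotomized neurons and in stressed cells of other types, measured 106, 231, 82.3, 108 and 107 against controls from 41.5 to 66.4 with a median of 45.6. Replicate 2 was the highest, and the other 4 were close together above all controls (log2 change 1.37 ± 0.23 (SE), adjusted p = 0.00136). Socs3, Ccn5 and S100a4, which are not on this list, also rose. Socs3, a feedback inhibitor of cytokine signalling, had a log2 change of 0.95 ± 0.21 (SE), adjusted p = 0.0333, or 0.86 (adjusted p = 0.169) without A315T replicate 2, and Ccn5, a secreted matricellular protein, one of 2.21 ± 0.29 (SE), adjusted p = 3.80e-05. Ccn5 measured 77.4, 126, 64.2, 116 and 75.2 in A315T and ranged from 11.7 to 26.9 with a median of 20.4 in controls, without overlap. S100a4, a calcium-binding protein of migrating cells, measured 158, 339, 124, 187 and 201 against controls from 30.1 to 112 with a median of 63.4 and changed by 1.63 ± 0.29 (SE), adjusted p = 0.00275.

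**Figure D3:**
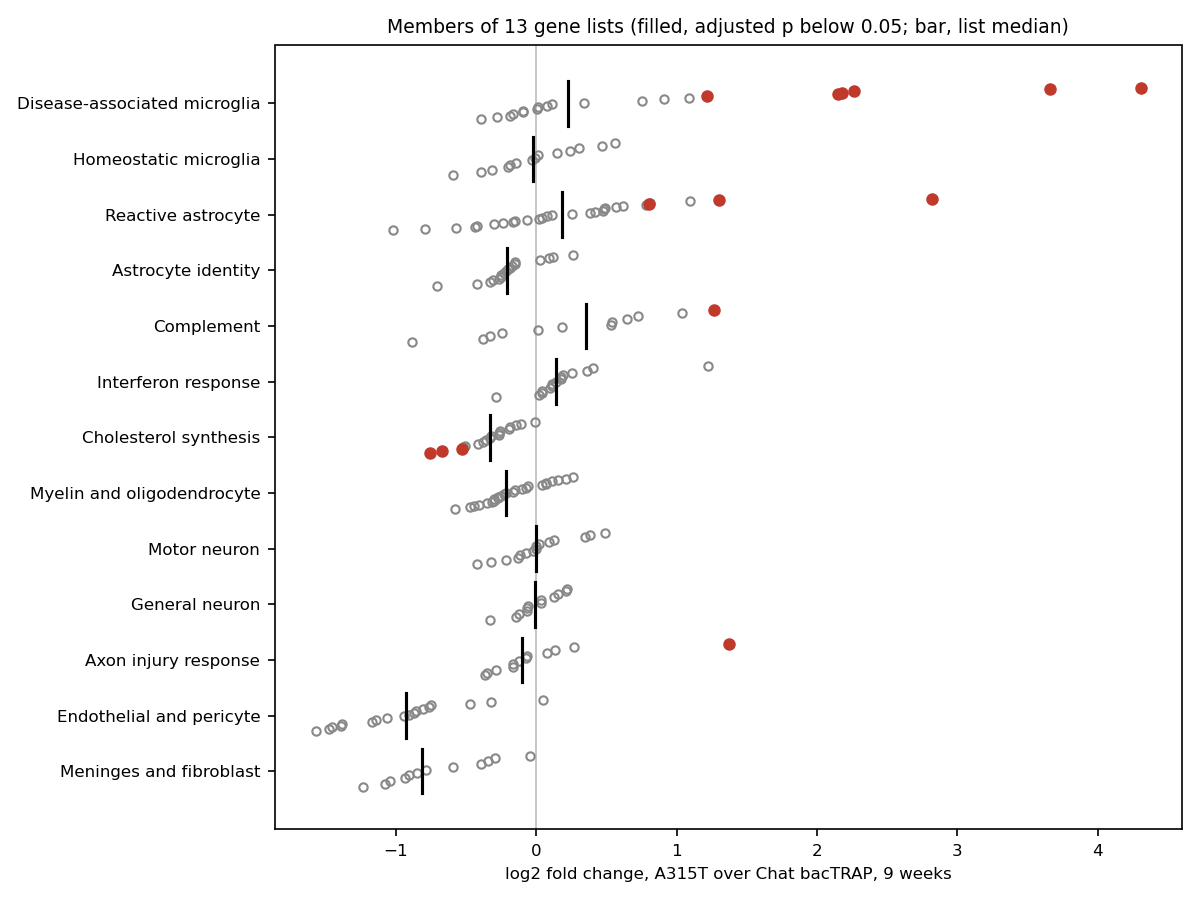
Each circle is the log2 fold change of 1 gene, A315T over Chat bacTRAP at 9 weeks, in a selection of the lists, ordered by size within a list. Filled circles passed an adjusted p below 0.05 and bars mark list medians. Filled circles occur for 6 disease-associated microglial, 3 reactive astrocyte, 1 complement, 1 axon injury and, below 0, 3 cholesterol synthesis genes.

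Promoter windows are shown for 5 rises of myeloid genes and for Msmo1, the sterol enzyme described further on, because they hold letters of motifs known for factors of these programs. They were chosen for holding a match. RefSeq gives a window of 250 bases before to 50 after a start (GRCm38.p6) for 44 of the 57 rises and 17 of the 22 falls. Searched on both strands were AGGAAGT, the core bound by the myeloid factor PU.1, TGANTCA, the AP-1 site with any base allowed in the middle, and TCACNCCA, a sterol regulatory element. No match overlapped another in the windows shown. AGGAAGT was present for 17 of the 44 rises (38.6%), 2 of the 17 falls (11.8%) and 10.7% of 27025 genes with a window. TGANTCA was present for 5 of 44 (11.4%), 1 of 17 (5.88%) and 8.97%, respectively. TCACNCCA was present for 3 of 44 (6.82%), 1 of 17 (5.88%) and 4.97%, and for 3 of 12 cholesterol synthesis genes with a window (25%). Capitals mark every match to the 3 motifs, 5′ to 3′ on the strand of the gene.

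Cst7, chr2:150570165-150570464, plus strand: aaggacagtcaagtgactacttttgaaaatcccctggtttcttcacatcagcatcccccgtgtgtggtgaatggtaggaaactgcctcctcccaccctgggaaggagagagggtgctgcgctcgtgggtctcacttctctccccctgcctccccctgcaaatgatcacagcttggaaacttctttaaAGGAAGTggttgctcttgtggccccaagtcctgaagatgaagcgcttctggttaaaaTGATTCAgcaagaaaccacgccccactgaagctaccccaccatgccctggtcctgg
Mmp12, chr9:7344147-7344446, plus strand: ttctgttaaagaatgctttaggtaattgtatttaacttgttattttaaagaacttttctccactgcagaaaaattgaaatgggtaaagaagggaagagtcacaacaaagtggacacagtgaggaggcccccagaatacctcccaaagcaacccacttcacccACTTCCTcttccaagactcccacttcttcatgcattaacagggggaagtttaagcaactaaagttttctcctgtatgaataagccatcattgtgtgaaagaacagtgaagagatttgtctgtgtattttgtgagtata
Itgax, chr7:128129300-128129599, plus strand: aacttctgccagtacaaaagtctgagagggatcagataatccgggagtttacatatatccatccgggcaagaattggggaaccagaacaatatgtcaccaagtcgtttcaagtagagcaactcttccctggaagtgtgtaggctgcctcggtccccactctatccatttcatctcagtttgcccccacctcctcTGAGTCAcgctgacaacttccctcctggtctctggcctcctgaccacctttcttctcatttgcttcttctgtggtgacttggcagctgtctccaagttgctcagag
Gpnmb, chr6:49036268-49036567, plus strand: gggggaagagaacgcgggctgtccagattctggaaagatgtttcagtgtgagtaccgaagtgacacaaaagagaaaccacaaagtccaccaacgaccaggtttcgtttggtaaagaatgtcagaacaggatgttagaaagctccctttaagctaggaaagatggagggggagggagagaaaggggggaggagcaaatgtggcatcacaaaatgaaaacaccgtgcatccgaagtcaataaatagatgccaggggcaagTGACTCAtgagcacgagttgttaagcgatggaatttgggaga
Inpp5d, chr1:87620062-87620361, plus strand: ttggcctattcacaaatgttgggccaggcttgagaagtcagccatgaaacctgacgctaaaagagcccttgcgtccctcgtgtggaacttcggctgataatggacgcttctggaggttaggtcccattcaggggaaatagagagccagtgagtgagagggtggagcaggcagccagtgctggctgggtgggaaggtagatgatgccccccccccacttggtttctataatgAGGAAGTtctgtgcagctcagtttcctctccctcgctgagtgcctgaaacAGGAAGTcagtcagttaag
Msmo1, chr8:64733529-64733828, minus strand: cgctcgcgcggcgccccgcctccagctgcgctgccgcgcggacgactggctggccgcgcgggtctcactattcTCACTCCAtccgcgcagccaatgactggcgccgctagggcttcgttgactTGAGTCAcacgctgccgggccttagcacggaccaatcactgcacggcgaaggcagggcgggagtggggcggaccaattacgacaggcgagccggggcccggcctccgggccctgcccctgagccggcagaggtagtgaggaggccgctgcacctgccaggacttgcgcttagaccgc

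The Cst7 window holds AGGAAGT starting 63 bases before the start and an AP-1 letter match, TGATTCA, starting 6 bases before it. Mmp12 holds ACTTCCT, the reverse complement of AGGAAGT, starting 88 bases before its start. Another window of Mmp12, not shown, holds an AP-1 match. Itgax and Gpnmb hold AP-1 letters, TGAGTCA starting 56 bases before and TGACTCA starting 8 bases after the start base. Inpp5d holds AGGAAGT on either side of its start. In Msmo1, TCACTCCA starts 177 and TGAGTCA 127 bases before the start. A match of letters is a description of the sequence and does not show binding.

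Cholesterol synthesis genes lay on the lower side. All 18 tested members had a log2 change below 0 (median -0.33, against -0.01 over all genes), 3 passed the test downward beside 0.121% of all genes, and for 8 every A315T library was below every control, beside 0.985% of all genes. The summed count of the 18 was 43890, 37610, 40940, 42020 and 42180 in A315T replicates 1 to 5 and 48710 to 61250 in Chat bacTRAP. The lowest control, replicate 4, exceeded all A315T libraries. In the 2 controls with little mitochondrial RNA the sum was 54980 and 51300, and in hTDP-43 WT it was 47020 to 52900.

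Msmo1, the methylsterol monooxygenase that acts after lanosterol, measured 2764, 2683, 2745, 2639 and 2736 normalized counts in A315T and ranged from 3195 to 6133 with a median of 4518 in Chat bacTRAP. The 5 A315T values were nearly equal, whereas controls spread widely with replicates 3 and 6 highest, and Msmo1 fell by 0.76 ± 0.15 (SE) on the log2 scale, adjusted p = 0.00867. Cyp51, the lanosterol demethylase, measured 2671, 2430.5, 2342, 2481 and 2459 against controls from 2849 to 5314 with a median of 3857. It fell by 0.67 ± 0.13 (SE) on the log2 scale, adjusted p = 0.0113, with controls 2 and 4 nearest to A315T. Insig1, which retains the sterol-sensing SREBP complex in the endoplasmic reticulum, measured 1992, 1828, 1929, 1911 and 1924 against controls from 2229 to 3378 with a median of 2813 and fell by 0.53 ± 0.11 (SE) on the log2 scale, adjusted p = 0.0132. Without A315T replicate 2 the change of Insig1 was -0.52 (adjusted p = 0.0598).

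Among the 15 members that did not pass in edgeR, the squalene epoxidase Sqle had a log2 change of -0.33 ± 0.09 (SE), Nsdhl -0.32 ± 0.08, Sc5d -0.52 ± 0.14 and the synthase Hmgcs1 -0.51 ± 0.14, with adjusted p from 0.071 for Nsdhl to 0.12 for Sc5d. DESeq2 called 7 members of the list, including Sqle, Nsdhl, Sc5d and Hmgcs1, and limma-voom called 13. Srebf2, the transcription factor of the pathway, was at -0.01 ± 0.13. With Chat bacTRAP replicates 1 and 2 as the only controls, the changes were -0.49 (adjusted p = 1) for Msmo1, -0.37 (adjusted p = 1) for Cyp51 and -0.39 (adjusted p = 0.997) for Insig1. With the mitochondrial share as a covariate they were -0.57 (adjusted p = 0.031), -0.48 (adjusted p = 0.031) and -0.42 (adjusted p = 0.0424). Cholesterol is made in cord chiefly for myelin, and 18 of 25 myelin and oligodendrocyte genes had a log2 change below 0 (median -0.21), with 0 past the test in edgeR (12 at an unadjusted p below 0.05), 1 in DESeq2 (Mog) and 13 in limma-voom. The myelin sum was 571700 to 702300 in A315T and 652800 to 711600 in Chat bacTRAP replicates 1 and 2. In Chat bacTRAP replicates 3 to 6 it was 756200 to 939800.

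Other falls were scattered in function. Upp2, a uridine phosphorylase, measured 679.5, 594, 702, 733 and 678 in A315T and ranged from 1006 to 1188 with a median of 1056 in Chat bacTRAP. Both groups were tight and far apart, and Upp2 fell by 0.65 ± 0.08 (SE) on the log2 scale, adjusted p = 2.94e-05. Clns1a, a chaperone that hands Sm proteins to the spliceosomal assembly machinery, measured 1436, 1456, 1554, 1449.7 and 1694 against controls from 2364 to 3292 with a median of 2721 and fell by 0.88 ± 0.12 (SE) on the log2 scale, adjusted p = 4.35e-05. Both kept their call with Chat bacTRAP replicates 1 and 2 as the only controls, at log2 changes of -0.61 (adjusted p = 0.0216) and -0.87 (adjusted p = 0.0216). They were the 2 falls of smallest p.

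Brwd1, a bromodomain protein, fell by 0.48, Tmtc4, a mannosyltransferase of the endoplasmic reticulum, by 0.70, Chid1, a chitinase-like protein, by 0.56, and Myoc, the secreted protein myocilin, by 0.81, all log2 changes, with adjusted p from 0.00375 to 0.0411. Myoc was 1 of the 2 falls with overlapping groups, the other being the antisense transcript Hoxaas3. The 4 falls of at least 2-fold were low in count or are non-coding or predicted genes. Tmc5, of the channel-like TMC family, had 4 to 9 counts per A315T library and 7 to 14 per control and fell by 1.51 ± 0.32 (SE) on the log2 scale, adjusted p = 0.0207. B230110C06Rik fell by 1.35, the antisense gene Gm37768 by 1.01 and Gm3558 by 1.01. Without A315T replicate 2, Tmc5 (adjusted p = 0.0698), Gm3558 (0.0584) and Tmtc4 (0.118) did not pass. Whether reads were counted by strand is not given in the sources used here, so antisense values may hold reads of the opposite gene.

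By chromosome, 5 of the 22 falls lay on chromosome 14, which holds 3.47% of the genes tested, and 5 on chromosome 7, which holds 7.5%. The ribosomal protein genes Rpl15 (chr14, A315T 1006 to 1247, Chat bacTRAP 1318 to 2707) and Rps15a (A315T 2089.9 to 2435, Chat bacTRAP 2737 to 3420.5) fell by 0.83 and 0.39. Both have processed copies elsewhere in the genome, and Gm3558 and Gm3636 belong to a multicopy family, so how reads were shared among copies makes these 4 values uncertain.

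**Figure D4:**
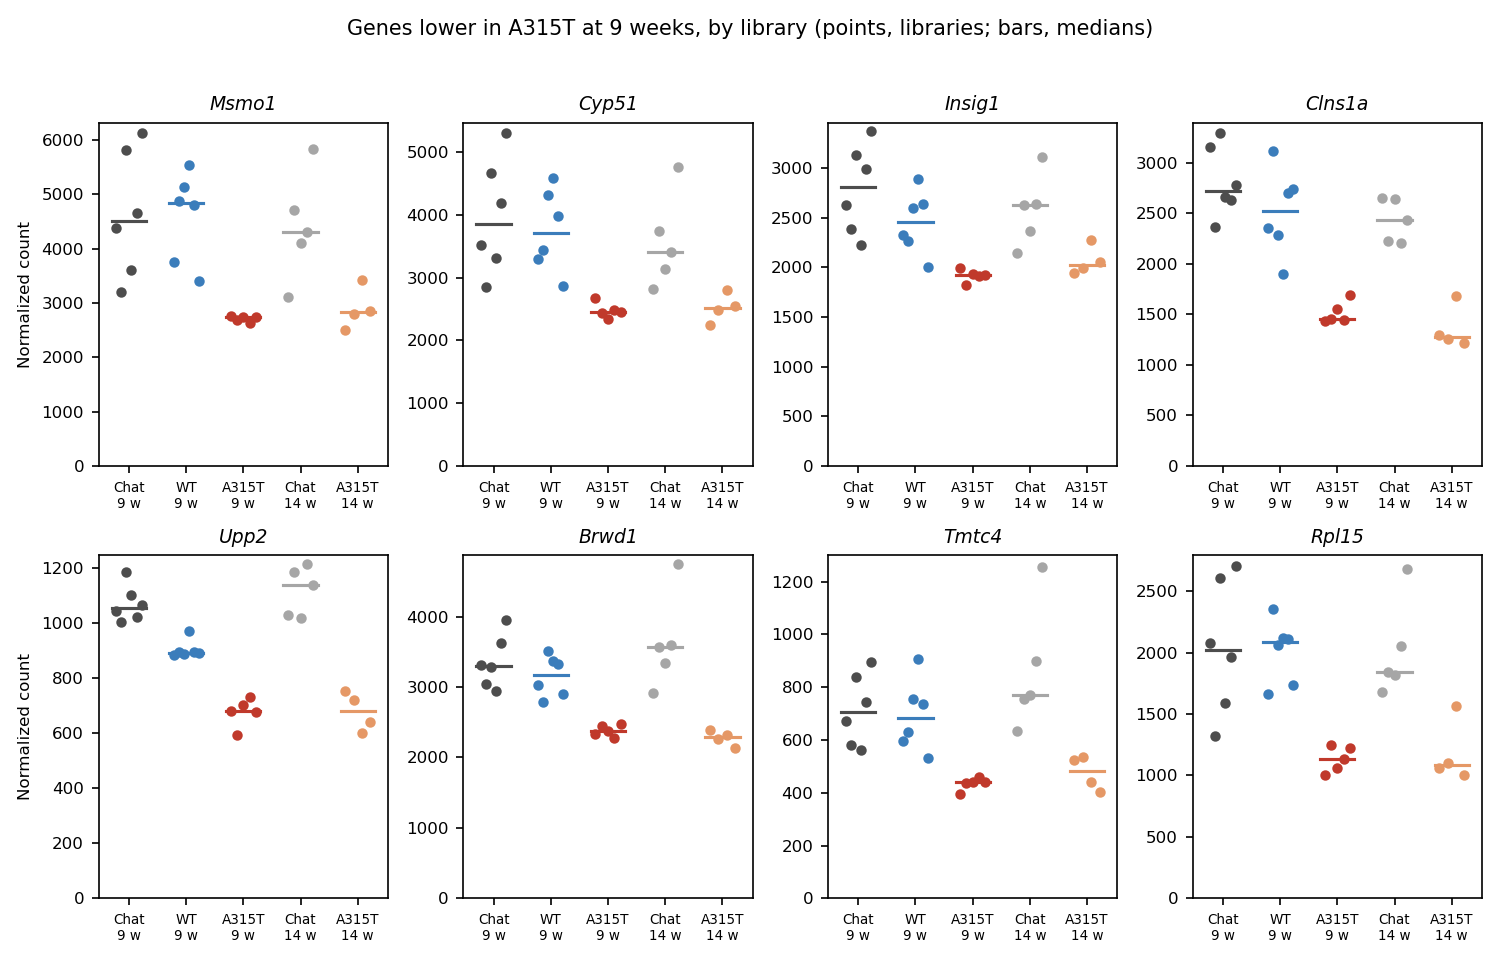
Normalized count, from 0 on a linear axis, of 8 genes lower in A315T cord at 9 weeks, in each library of the same 5 groups as for the microglial genes, with medians as bars. At 9 weeks the A315T values are tightly grouped and lie below all 6 Chat bacTRAP values in each panel, for example 2639 to 2764 against 3195 to 6133 for Msmo1.

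None of 15 motor neuron genes passed in edgeR (median log2 change -0.0009), with 2 at an unadjusted p below 0.05 and 1 past the test in DESeq2 (Prkcd) and in limma-voom. Of 11 excitatory neuron and peptide genes, 10 had a log2 change below 0 (median -0.34), with 0 past the test in edgeR, 7 at an unadjusted p below 0.05, 1 past it in DESeq2 (Nts) and 8 in limma-voom. Their sum was 21110 to 21620 in Chat bacTRAP replicates 1 and 2, within the A315T range of 18890 to 22680. In Chat bacTRAP replicates 3 to 6 it was 25430 to 29500. None of 12 general neuron, 5 neuronal intermediate filament and 8 inhibitory neuron genes passed in edgeR or DESeq2 (2, 1 and 0 in limma-voom, and 1, 0 and 0 at an unadjusted p below 0.05). Chat measured 782, 628, 668, 745 and 677 in A315T and ranged from 237 to 879 with a median of 499 in controls, with a log2 change of 0.49 ± 0.28 (SE), adjusted p = 0.523, and Mnx1, a motor neuron identity factor, stood at -0.02 ± 0.14 (SE), adjusted p = 0.968. Of 26 familial ALS genes, 12 neuronal messages bound by TDP-43, 20 integrated and ER stress genes and 14 heat shock genes, none passed in edgeR or DESeq2 (1, 2, 1 and 2 in limma-voom, and 1, 2, 1 and 1 at an unadjusted p below 0.05), and the list medians lay between -0.01 and 0.04. Plekhb1 and Tex26, genes followed up in the study, had log2 changes of -0.21 ± 0.10 (SE), adjusted p = 0.426 and 0.80 ± 0.34 (SE), adjusted p = 0.381. Syngr4 was too low in cord to be tested.

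Lists of vessel, meningeal and nerve root cells gave medians below 0 without a call in edgeR. The median log2 change was -0.92 for 18 endothelial and pericyte genes, of which 5 had all A315T libraries below all controls (0.985% of all genes), -0.82 for 12 meningeal and fibroblast genes, -0.49 for 9 Schwann cell genes and -1.44 for 8 mitochondrially encoded genes. At an unadjusted p below 0.05 these 4 lists held 16, 6, 3 and 6 genes, DESeq2 called 3, 0, 1 and 1, and limma-voom 10, 0, 2 and 4. Endothelial, Schwann cell and mitochondrial sums were higher in each of Chat bacTRAP replicates 3 to 6 than in replicates 1 and 2 and in A315T. The same held for the myelin and the excitatory neuron sums. The meningeal sum was clearly higher only in replicates 3 (94910) and 6 (56190), against 34480 to 43700 in the other controls and 35710 to 40520 in A315T. The part of these differences in other results was not tested. Blood genes had a median of 1.26 with 0 of 8 past the test in edgeR, DESeq2 and limma-voom (5 at an unadjusted p below 0.05), and their sum was high in A315T replicates 1 and 2. None of 9 oligodendrocyte precursor, 8 ependymal, 10 skeletal muscle, 5 T and B cell, 8 sensory ganglion, 11 immediate early, 15 circadian clock, 12 glucocorticoid response or 17 Hox genes passed in edgeR. At an unadjusted p below 0.05 these lists held 0, 2, 0, 0, 0, 2, 0, 2 and 5 genes, DESeq2 called 1 ependymal gene (Tmem212) and none of the others, and limma-voom called 1 ependymal, 3 immediate early, 1 circadian clock, 1 glucocorticoid response and 3 Hox genes and none of the others. In A315T replicate 1, Cst7, Itgax and Clec7a were lower than in every other A315T library except replicate 3.

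The comparison with a line that expresses wild-type human TDP-43 shares the A315T libraries, and its values are given beside the first. Against hTDP-43 WT at 9 weeks 65 genes (0.358%) passed the test, 43 higher (0.237%) and 22 lower (0.121%), and 3441 (18.9%) had an unadjusted p below 0.05. Mitochondrially encoded genes took up to 10.1% of counts in hTDP-43 WT. Cst7 stood at a log2 change of 3.80 (adjusted p = 6.74e-07), Itgax at 2.92 (2.13e-05), Lgals3 at 1.79 (1.23e-04), Clec7a at 2.09 (0.00524), Serpina3n at 1.25 (1.39e-04) and C4b at 1.18 (0.00179), with adjusted p in parentheses. Msmo1 was at -0.75 (0.0126), Cyp51 at -0.59 (0.04), Insig1 at -0.35 (0.124), Clns1a at -0.73 (9.26e-04) and Upp2 at -0.41 (0.0143). Between hTDP-43 WT and Chat bacTRAP, which share libraries with both comparisons, the same genes ranged from -0.24 for Upp2 to 0.74 for Itgax, none past the test. Tmc5 and Clic6 differed in this respect, with log2 changes of -0.34 and -0.17 against hTDP-43 WT, and -1.17 and -0.53 between the 2 control lines.

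At 14 weeks, the older age, 4 A315T and 5 Chat bacTRAP libraries that share none with the 9-week groups were compared. There 49 genes (0.27%) passed, 29 higher (0.16%) and 20 lower (0.11%), of which 19 rises (0.105%) and 11 falls (0.0605%) reached 2-fold. Of the 57 rises at 9 weeks, 21 also passed upward at 14 weeks, which is 36.8% of the 9-week and 72.4% of the 14-week rises, and 56 had a log2 change above 0, Apbb1ip being the exception. Of the 22 falls, 6 also passed downward (27.3% of the 9-week and 30% of the 14-week falls), and 21 had a log2 change below 0. The genes chosen at 9 weeks had a median log2 change of 1.16 at 9 and 0.83 at 14 weeks for rises and of -0.72 and -0.57 for falls. The 9-week values chose these genes, so the medians at the 2 ages are not set against each other. Mitochondrially encoded genes took at most 1.72% of counts in A315T and up to 8.53% in Chat bacTRAP at 14 weeks, an imbalance of the same direction as at 9 weeks, and its part in the overlap was not tested.

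Lgals3 (log2 change 2.34 at 14 weeks), Serpina3n (1.65), C4b (1.34), Ccn5 (2.98) and Mmp12 (5.27) passed at both ages. Cst7 stood at 2.86 and Itgax at 2.51, both past the test. Clec7a, at 1.33 (adjusted p = 0.15), did not pass at 14 weeks, nor did Msmo1 at -0.57 (0.122) or Cyp51 at -0.46 (0.157). Gfap, short of the threshold at 9 weeks, had a log2 change of 0.83 (adjusted p = 0.00269) at 14 weeks. A test of the difference between the ages called 0 of 18178 genes in edgeR, 0 in DESeq2 and 0 in limma-voom, with 351 genes (1.93%) at an unadjusted p below 0.05 in edgeR. Of the named genes, Tmc5 had the lowest unadjusted p of that difference, a log2 difference of 1.92 ± 0.46 (SE; adjusted p = 0.999), and that of Cst7 was -1.44 ± 0.60 (adjusted p = 0.999).

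**Figure D5:**
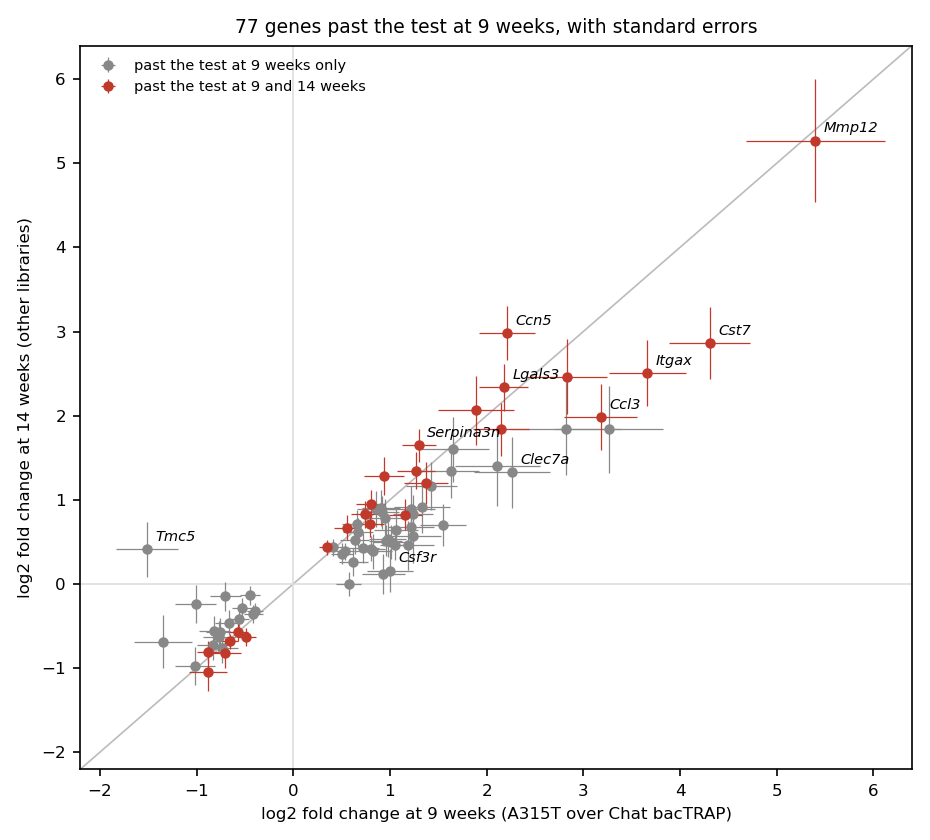
Log2 fold change of A315T over Chat bacTRAP at 14 weeks (y axis) against 9 weeks (x axis) for the 79 genes past the test at 9 weeks without the pseudogenes Gm13886 and Lamr1-ps1, with standard errors as bars and the line of equal change in grey. Red points passed at both ages. Cst7 (4.31 and 2.86) and Itgax (3.66 and 2.51) lie below the line and Ccn5 (2.21 and 2.98) above it, and Tmc5 (-1.51 and 0.41) is the one fall with a change above 0 at 14 weeks.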

How the data were processed

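The deposited tables hold raw counts of reads per gene, which the authors made, per the labels' processing notes and the study's methods, with bcl2fastq2, STAR, featureCounts and the mouse build mm10. Each of the 43629 gene IDs was paired with a symbol where possible (42462 paired, 1167 not; coordinates from GENCODE M21). The counts of 31 cord libraries in 6 groups were fitted together in edgeR 4.0.16 (R 4.3.3, limma 3.58.1) with TMM normalization, the filterByExpr filter (18178 genes kept) and the quasi-likelihood test, with Benjamini-Hochberg adjustment over all genes kept. A gene passed at an adjusted p below 0.05 and is called changed if it also differed 2-fold. Standard errors come from the F statistic. Values printed per library are the authors' deposited signal, their counts divided by 1 size factor per library (normalized counts). They are not scaled by gene length.

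Named genes were the 12 largest rises and 12 largest falls among changed genes at 1 CPM or more in the higher group, the 8 of smallest p, up to 4 members of smallest p in each of 34 lists, and the marks of the transgene and genes named in the study. Other genes past the test, and other list members, were named after their values were seen. Members and lists were chosen with earlier results of these data known. The procedure was tested on simulated data. DESeq2 1.42.0, limma-voom, other filters, scalings and sets of libraries, a replicate block and each library left out were the alternatives. A fit on 2 control libraries and one with the mitochondrial share as covariate were added after seeing the data. No pair of the 11 libraries was a duplicate (smallest chi-square per gene 8.95 over 55 pairs). Floors of 3 counts cover counting error only.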

Additional observations from a re-analysis of the deposited data

Results flagged for a closer look

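Among the genes past the test, 158 groups of 5 or 6 libraries were examined for a single library far from the others (Dixon's criterion), and 16 held one. The criterion's chance rate of about 5 percent is for independent groups. These groups share libraries and were chosen by the test, so that rate does not apply here. In 12 of the 16 the outlying library was A315T replicate 2 at the top, for genes that rose. Its normalized counts, each followed by the next highest of the 5, were 275 and 106 for Cst7, 371 and 170 for Gpnmb, 1370 and 881 for Lgals3, 156 and 66.4 for Ccl3, 571 and 332 for Irf8, 110 and 56.6 for the small GTPase gene Arl11, and 231 and 108 for Atf3. They were 36.2 and 15.0 for Tgm1, 805 and 500 for the annexin Anxa3, 317 and 205 for Apbb1ip, 215 and 110 for Arhgap25 and 644 and 433 for Cyth4. Blood genes were also high in this library and in A315T replicate 1. The part of blood in these values was not tested.

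The other 4 were of different libraries. Rps15a was lowest in A315T replicate 1 (2090, next 2350), Gm10125 and Hcar2 were highest in Chat bacTRAP replicate 6 (339, next 289, and 5.38, next 1.63), and Tmc5 was highest in Chat bacTRAP replicate 3 (16.3, next 11.1).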

How the results depend on the processing

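None of the 79 genes changed direction under any alternative that gave it a value. The same libraries chose these genes, so the kept direction largely follows from the choice and adds no support. The counts are given as genes changed at least 2-fold and genes past the test at any fold, 36 and 79 as reported. They were 7 and 8 with all 56 libraries in the fit, 79 and 204 in DESeq2, 183 and 1703 in limma-voom with quality weights, 12 and 15 with Chat bacTRAP replicates 1 and 2 as the only controls, and 73 and 135 with the mitochondrial share as covariate. The last 2 settings were chosen after seeing the data, and the causes were not tested. With each library left out the counts ranged from 21 to 50 and from 40 to 137. They were 21 and 40 without A315T replicate 2, 30 and 52 without A315T replicate 4, 27 and 50 without Chat bacTRAP replicate 5 and 50 and 137 without Chat bacTRAP replicate 2. The other alternatives gave 26 to 42 and 55 to 90. Genes past the test split into 57 higher and 22 lower as reported, 51 and 39 in the fit of the 11 libraries alone, 113 and 91 in DESeq2, and 790 and 913 in limma-voom. The number of genes whose change differed between ages was 0 in each alternative run.

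With the replicate number as a block 29 genes changed and 55 passed at any fold, 53 of them among the 79. Libraries of the same number did not deviate together (correlations from -0.26 to -0.09), and none correlated best with its own number. These correlations cannot exclude a pairing, because differences between libraries in mitochondrial share or cell content could outweigh it.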
